A study of Mus musculus with 23 samples.

Results

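The genes described here are 41 stress-response genes of the mouse, taken by name from the 45706 genes of a hippocampal count table. They form 3 sets: 22 genes of the unfolded protein response of the endoplasmic reticulum (ER), 10 genes of the integrated stress response and its transcription factor ATF4, and 9 genes of the cytosolic heat-shock response. The names were given as a list, and no measured value of the genes was used by the rule. The samples are hippocampi of female mice, 12 that carry the insulin gene Ins2 (Ins2+/+, WT) and 11 that lack it (Ins2-/-, KO), each measured by RNA sequencing. By its title the series asks how insulin made in the brain bears on memory. Neither age, strain background nor treatment is given in the sources used here, and the labels do not say where the deletion acts beyond the genotype. They also do not state that each library came from its own animal, so p-values measure the spread between these libraries.

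The ER folds secreted and membrane proteins. When unfolded protein builds up there, the sensors IRE1 (Ern1), PERK (Eif2ak3) and ATF6 signal to the nucleus, and the factors XBP1 and cleaved ATF6 raise transcription of chaperones, disulfide isomerases and the machinery that exports misfolded protein for degradation. PERK also phosphorylates the initiation factor eIF2, as do kinases that sense amino acid shortage, haem and viral RNA, and this lowers general translation while ATF4 is translated more. ATF4 turns on amino acid synthesis, feedback regulators and, with DDIT3 (CHOP), genes of cell death. In the cytosol, HSF1 is held by chaperones until unfolded protein occupies them, and then activates HSP70, HSP90 and small heat-shock proteins. Neurons hold high levels of HSPA8, the constitutive HSP70, without stress.

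Known binding motifs of these factors were counted in the promoter sequence of the members, and a few of them are printed because the genes that carry them are those whose levels are compared below. Windows of 250 bases before to 50 bases after the transcription start were taken from RefSeq on GRCm38.p6 and matched by symbol to 35 of the 41 members, with 38 windows in all. Each motif was searched on both strands. The ER stress element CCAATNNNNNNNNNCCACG was found in 8 of 19 ER genes (42.1%), namely Calr, Canx, Creld2, Dnajc3, Hsp90b1, Hspa5, Pdia6 and Syvn1, and in 0.137% of all 27025 genes with a window. It was in 0 of 10 ATF4-set genes and 0 of 6 heat-shock genes. In the lines that follow, read 5′ to 3′ on the strand of the gene, the capitals mark the element in either orientation.
Hspa5: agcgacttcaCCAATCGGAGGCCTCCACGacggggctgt
Calr: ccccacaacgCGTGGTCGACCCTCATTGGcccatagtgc
Canx: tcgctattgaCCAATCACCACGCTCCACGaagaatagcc
Pdia6: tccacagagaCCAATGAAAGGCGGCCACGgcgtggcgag
The Hspa5 window lies at chr2:34772015-34772053 on the plus strand and the element begins 65 bases before the start. The others lie at chr8:84847065-84847103 on the minus strand for Calr, at chr11:50325790-50325828 on the minus strand for Canx, and at chr12:17266481-17266519 on the plus strand for Pdia6. The shorter XBP1 core TGACGTGG was in none of the 35 members' windows and in 0.714% of all genes' windows.

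The ATF4-type element (TGATGAAA, TGATGCAA or TGATGTAA) was found in 4 of 10 ATF4-set genes (40%), Asns, Atf3, Chac1 and Trib3, against 3.38% of all genes. Herpud1 was the 1 ER gene of 19 that held it, and it was in 0 of 6 heat-shock genes. The paired heat-shock unit GAANNTTC was in 5 of 6 heat-shock genes (83.3%), Hspa1a, Hspa1b, Hspb1, Hsph1 and Bag3, and in 9.04% of all genes. These sequences are shown because Asns and Chac1 differ in how they vary, and because the split of reads between Hspa1a and Hspa1b is uncertain. The capitals mark the ATF4-type element in Asns, where it overlaps a heat-shock unit that is also in capitals, and in Chac1, and the heat-shock units in the others.
Asns: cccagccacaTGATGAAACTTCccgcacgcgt
Chac1: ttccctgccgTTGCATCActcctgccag
Hspa1a: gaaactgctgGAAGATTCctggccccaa
Hspa1b: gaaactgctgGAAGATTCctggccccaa
Hspb1: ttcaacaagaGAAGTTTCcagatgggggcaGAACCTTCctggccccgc
The Asns window is at chr6:7693211-7693242 (minus strand), the Chac1 window at chr2:119351039-119351066 (plus strand) and the Hspb1 window at chr5:135887792-135887839 (plus strand). Hspa1a and Hspa1b have the same letters in this stretch, at chr17:34972243-34972270 and chr17:34959325-34959352 on the minus strand. A match to these letters is a description of the sequence and does not show that a factor is bound in the hippocampus.

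The libraries held 13792274 to 22953261 counts. Ins2, the deleted gene, had 0 counts in each of the 11 KO libraries and 0 to 18 counts in WT libraries, 5 of which were also at 0, so it checks the labels in part. KO library 8 stood apart from the other 22 in the mean log2 level (CPM, counts scaled to a common library total) of marker genes. Dentate gyrus markers were at 2.25 against 4.89 to 5.86 in the others, and CA1 and CA3 markers at 2.85 against 5.47 to 6.11. Hypothalamic markers, mostly neuropeptide genes, were at 5.68 against -2.48 to -1.58. The library labelled KO 8 therefore goes against its tissue label. Fold changes without it are plotted for every tested member, and some are given in the text. A further 5 libraries, WT libraries 14 and 17 and KO libraries 2, 6 and 12, had 2881 to 18429 CPM of the choroid plexus gene Ttr against 4.5 to 55.3 CPM in 17 others. Across all genes, 2 of 15828 tested differed between genotypes at an adjusted p under 0.05 (edgeR's quasi-likelihood test, Benjamini-Hochberg adjustment), which is 0.0126%, and neither is a member.

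No member of the 3 sets differed between KO and WT hippocampus by the adjusted test. Of the 41 members 40 passed the filter on low counts, and 0 of these 40 had an adjusted p under 0.05, either with all libraries (background 0.0126%) or without KO library 8 (2 of 15870 genes, also 0.0126%). The smallest adjusted p of a member was 0.781 with edgeR, 0.963 without KO library 8 and 0.468 with DESeq2, which also called 0. At an unadjusted p under 0.05, 4 of 40 members (10%) stood out, against 5.74% of all tested genes. Without KO library 8 the count was again 4 of 40, against 4.11% of all genes, and without the 5 choroid-plexus-rich libraries it was 7 of 40 (17.5%) against 9.14%. Without those and KO library 8 it was 5 of 40 (12.5%) against 8.05%. DESeq2 gave 4 of 40. Counts of 4 to 7 genes beside these backgrounds are not read as a result about the members. The 4 genes were the inducible HSP70 gene Hspa1b, its cochaperone Bag3, the degradation adaptor Sel1l and Atf4 itself, and they were the 4 in both fits.

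As a whole the sets were centred near 0. The median log2 fold change, KO over WT, was -0.027 for the 22 ER genes, -0.011 for the 9 tested ATF4-set genes and -0.058 for the 9 heat-shock genes, against 0.003 for all tested genes. Without KO library 8 these medians were -0.034, -0.011 and -0.089. Members with a lower estimate in KO numbered 26 and those with a higher one 14, against 7749 and 8079 of all tested genes. They numbered 29 and 11 without KO library 8, against 7681 and 8189 of all genes. Without the 5 choroid-plexus-rich libraries 20 were lower and 20 higher, against 8159 and 7720 of all genes, and without both 24 and 16, against 8406 and 7545. The sign of 5 members changed without KO library 8 (Hyou1, Xbp1, Chac1, Sesn2 and Dnajb1), and that of 6 without the choroid-plexus-rich libraries (Hspa5, Hsp90b1, Manf, Pdia3, Pdia6 and Ddit3). The estimates ran from -0.41 for Hspa1b to 0.32 for Bag3, both heat-shock genes, and the ER estimates stayed between -0.19 and 0.09. In the plot of fold changes 29 of the 40 lie within 1 SE of 0, and 25 did in the fit without KO library 8. The share over all tested genes was not counted, so these counts are not read as a result about the members.

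**Figure D1:**
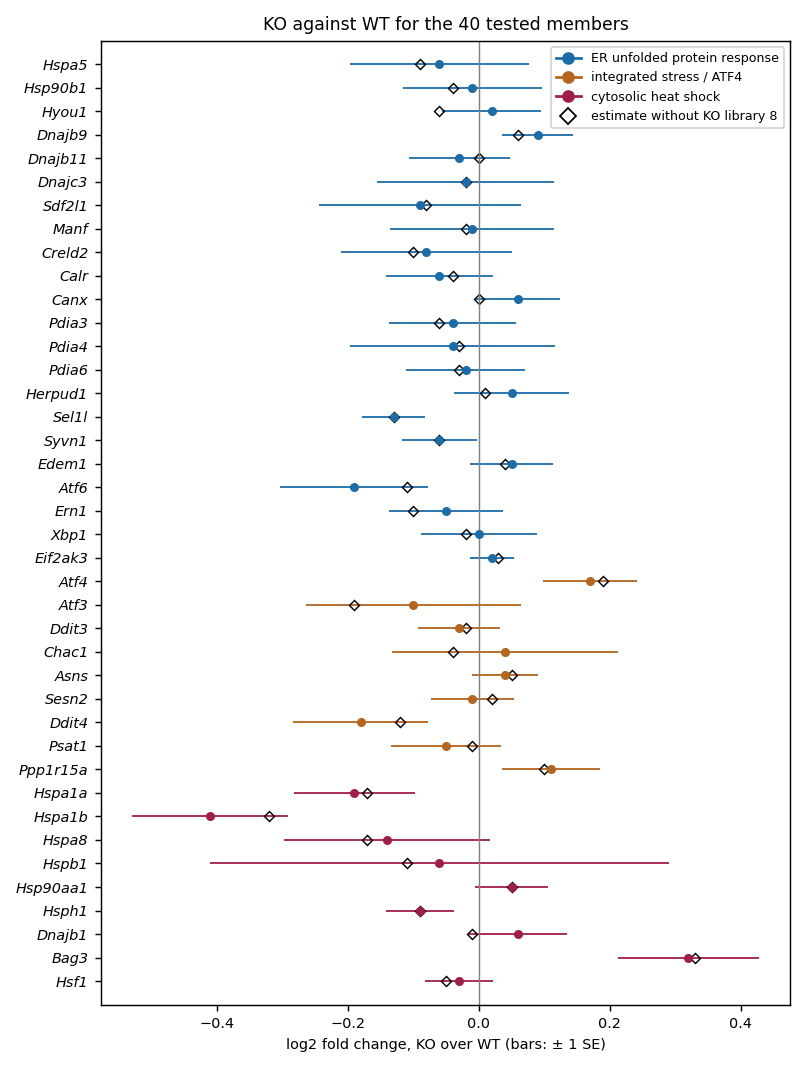
Log2 fold change of KO over WT for the 40 tested members, with all 23 libraries (points, bars ± 1 SE) and without KO library 8 (open diamonds), coloured by set. Hspa1b lies farthest left at -0.41 and Bag3 farthest right at 0.32, and none passed the threshold after adjustment.

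Among the ER chaperones, Hspa5 encodes BiP, the HSP70 of the ER and the gene most often used to read the unfolded protein response. Its level ran from 259 CPM through a median of 329 to 669 CPM in WT, and from 254 through 356 to 540 CPM in KO. The ranges overlapped almost fully, with WT library 17 highest and KO library 9 lowest. The log2 fold change was -0.06 ± 0.136 (SE; adjusted p = 0.921, edgeR with Benjamini-Hochberg adjustment), and -0.09 ± 0.141 without KO library 8. Hsp90b1 (GRP94, the HSP90 of the ER) had 421 ± 96.4 CPM in WT and 418 ± 64.0 in KO (mean ± SD). Hyou1, which recharges BiP with nucleotide, had 139 ± 11 and 141 ± 26.2 CPM, and 133 ± 9.37 CPM in KO without library 8. Its log2 fold change moved from 0.02 ± 0.0755 to -0.06 ± 0.0474 without that library. The cochaperones Dnajb9, Dnajb11 and Dnajc3, which bring clients to BiP, had log2 fold changes of 0.09, -0.03 and -0.02. Sdf2l1, Manf and Creld2, small ER proteins induced by ER stress, had -0.09, -0.01 and -0.08. With all libraries each of these 9 genes had an SE larger than its estimate, except Dnajb9 with an SE of 0.0546 and an unadjusted p of 0.132. Without the choroid-plexus-rich libraries Dnajb9 had an estimate of 0.13 ± 0.0584 (unadjusted p = 0.0353, edgeR). Without KO library 8, its highest library, the unadjusted p was 0.25, and without both it was 0.082 (edgeR).

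The lectin chaperones and the disulfide isomerases gave the same picture. Calr (calreticulin, which holds glycoproteins during folding) ran from 337 through 399 to 579 CPM in WT and from 314 through 390 to 520 CPM in KO, with a log2 fold change of -0.06 ± 0.0823. Its membrane-bound partner Canx had 417 ± 29.3 and 434 ± 63.7 CPM, and the KO mean was 416 ± 23 without KO library 8. The Canx estimate was 0.06 ± 0.0641, and 0.00 ± 0.0427 without that library. Pdia4, a disulfide isomerase, ran from 40.9 through 53.7 to 127 CPM in WT and from 44.5 through 56.0 to 101 CPM in KO. The ranges overlapped, with 1 WT library below the KO minimum, and the highest library of each genotype was rich in choroid plexus RNA. Its log2 fold change was -0.04 ± 0.157. Pdia3 and Pdia6 had estimates of -0.04 and -0.02.

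The genes of ER-associated degradation, which sends misfolded protein to the proteasome, held 1 of the 4 members with a low unadjusted p. Sel1l, the adaptor of the HRD1 ligase, ran from 176 through 203 to 238 CPM in WT and from 165 through 185 to 211 CPM in KO. In KO, 10 of 11 libraries lay under the WT median and 3 under the WT minimum, and 2 WT libraries lay above the KO maximum. Between these ends the ranges overlapped. The log2 fold change was -0.13 ± 0.0476 (unadjusted p = 0.0102, adjusted p = 0.781, edgeR), and -0.13 ± 0.048 without KO library 8. Without the choroid-plexus-rich libraries and KO library 8 it was -0.12 ± 0.0612 (unadjusted p = 0.0556, edgeR). Leaving out 1 library at a time kept the estimate between -0.15 and -0.11. Syvn1, the HRD1 ligase itself, had 46.6 ± 3.79 CPM in WT and 44.6 ± 4.83 in KO. Its log2 fold change was -0.06 ± 0.0568, and -0.12 ± 0.0565 without the choroid-plexus-rich libraries (unadjusted p = 0.0463, edgeR). Edem1, which marks glycoproteins for removal, had 20.8 ± 2.12 and 21.5 ± 2.15 CPM. Herpud1, an ER stress target that recruits this machinery, ran from 35.9 through 41.5 to 50.6 CPM in WT and from 32.1 through 41.6 to 60.8 CPM in KO. The medians were alike and the KO range was the wider on both sides, with a log2 fold change of 0.05 ± 0.0877.

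Of the sensors, Eif2ak3 (PERK) was the steadiest member of all. It ran from 24.2 through 26.9 to 28.3 CPM in WT and from 25.6 through 26.7 to 28.9 CPM in KO, and 0.486% of tested genes had a smaller SD of log2 CPM. Its log2 fold change was 0.02 ± 0.0336. Atf6 had 95.8 ± 11.6 CPM in WT and 83.9 ± 18.3 in KO, and 88.5 ± 10.7 in KO without library 8, which had 37.9 CPM. Its log2 fold change moved from -0.19 ± 0.113 to -0.11 ± 0.0725 without that library. Ern1 (IRE1) had 16.3 ± 1.84 and 15.7 ± 2.85 CPM, and 15.2 ± 2.28 CPM in KO without library 8. Xbp1, the factor whose mRNA IRE1 splices, ran from 58.2 through 66.6 to 95.0 CPM in WT and from 55.0 through 71.3 to 86.4 CPM in KO. Its means were 70.3 CPM in both genotypes. Gene-level counts do not separate spliced from unspliced Xbp1.

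In the ATF4 set the factor itself had the largest positive estimate, 0.17, and a low unadjusted p. Atf4 ran from 73.8 through 89.8 to 118 CPM in WT and from 91.4 through 101 to 134 CPM in KO. All 11 KO libraries lay above the WT median, 7 of 12 WT libraries lay below the KO minimum, and KO library 13 was highest. The log2 fold change was 0.17 ± 0.072 (unadjusted p = 0.0306, adjusted p = 0.781, edgeR), and 0.19 ± 0.0721 without KO library 8. Without KO library 13 it was 0.12, with the largest unadjusted p of any single omission, 0.0808. Atf4 protein is set largely by translation, which these data do not measure.

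The ATF4 partners and targets had estimates nearer to 0 or below it. Ddit3 (CHOP) had 19.8 ± 2.23 CPM in WT and 19.3 ± 1.76 in KO, and Atf3, a stress-induced repressor, had 2.34 ± 0.612 and 2.19 ± 0.652 CPM. Without KO library 8 the estimate of Atf3 moved from -0.10 ± 0.164 to -0.19 ± 0.151. Asns (asparagine synthetase, a classic ATF4 target) ran from 56.2 through 71.0 to 82.6 CPM in WT and from 63.9 through 74.3 to 81.1 CPM in KO, with 9 of 11 KO libraries above the WT median. Its ranges overlapped and its log2 fold change was 0.04 ± 0.0507. Psat1, of serine synthesis, had an estimate of -0.05 ± 0.0846. Chac1, which degrades glutathione, ran from 1.81 through 3.87 to 6.74 CPM in WT and from 2.4 through 3.76 to 6.42 CPM in KO, and it was among the most variable members. Its estimate was 0.04 ± 0.172 and changed sign without KO library 8.

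Among the feedback and growth regulators, Ddit4 (REDD1, an inhibitor of mTORC1) ran from 45.6 through 54.4 to 71.2 CPM in WT and from 30.8 through 49.0 to 63.8 CPM in KO. KO library 8 was lowest, and 3 WT libraries lay above every KO library. The log2 fold change was -0.18 ± 0.103, and -0.12 ± 0.0874 without that library. Sesn2, which senses leucine, had an estimate of -0.01, and Ppp1r15a (GADD34, which brings the eIF2 phosphatase) had 0.11 ± 0.0749 with 10 of 11 KO libraries above the WT median. The estimate of Ppp1r15a was 0.05 ± 0.0755 without the choroid-plexus-rich libraries and 0.01 ± 0.0741 without those and KO library 8. Trib3, an inhibitor of ATF4, was below the filter. It had 1 to 15 counts per library, 0.0663 to 0.683 CPM in WT and 0.178 to 0.891 CPM in KO, and was not tested.

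Hspa1b, an inducible HSP70, had the smallest p of the members. It ran from 30.5 through 36.0 to 52.7 CPM in WT and from 12.8 through 28.6 to 34.6 CPM in KO. All 11 KO libraries lay below the WT median, 8 of them below the WT minimum, and 7 of 12 WT libraries lay above the KO maximum. The log2 fold change was -0.41 ± 0.119 (unadjusted p = 0.00226, adjusted p = 0.781, edgeR). KO library 8 was the lowest at 12.8 CPM, and without it the estimate was -0.32 ± 0.0843 (unadjusted p = 0.000779, adjusted p = 0.963, edgeR). The lowest adjusted p over the 23 fits that each left out 1 library was 0.401. In KO library 8, Hspa1b made up 39.0% of the counts of the Hspa1a and Hspa1b pair, against 51.8% to 61.1% in the 10 other KO libraries.

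Hspa1a and Hspa1b have transcripts 99.2% identical over 2201 bases and lie 9.95 kb apart on chromosome 17, at chr17:34969190-34972156 and chr17:34956436-34959238, both on the minus strand. Their counts were fractional in each of the 23 libraries, so the split between them is uncertain. Hspa1a ran from 19 through 22.1 to 35.3 CPM in WT and from 17.2 through 20.8 to 24.8 CPM in KO, with a log2 fold change of -0.19 ± 0.0926. The unadjusted p was 0.0537 with all libraries, 0.0798 without KO library 8, 0.0487 without the choroid-plexus-rich libraries and 0.0672 without both (edgeR). It was lower in KO on average, as Hspa1b was, and 4 WT libraries lay above the KO maximum. Added together the genes had 61.0 ± 10.2 CPM in WT and 49.0 ± 7.52 CPM in KO, or 50.6 ± 5.6 CPM in KO without library 8. Counted as 1 gene they gave a log2 fold change of -0.32 (unadjusted p = 0.00214, adjusted p = 0.781, edgeR).

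**Figure D2:**
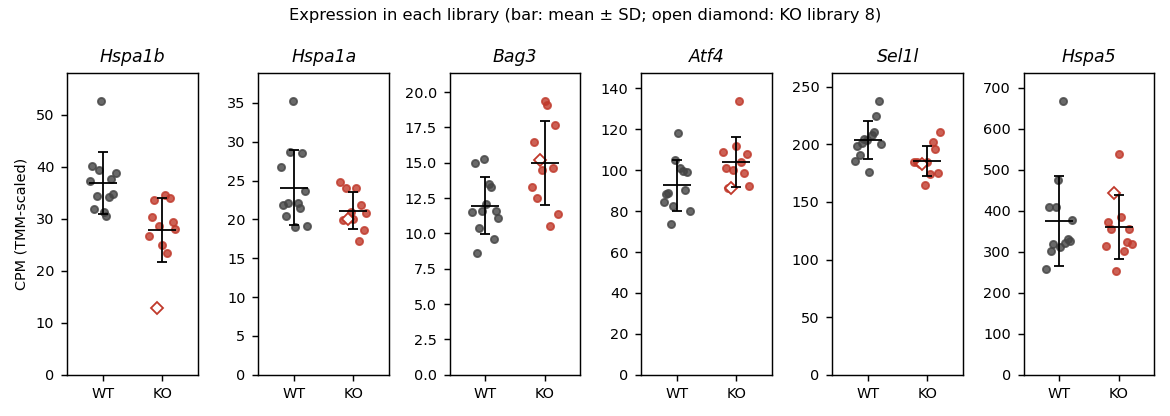
CPM of 6 members in each of 12 WT and 11 KO libraries, with mean ± SD as bars and KO library 8 as an open diamond. For Hspa1b the 11 KO libraries sit between 12.8 and 34.6 CPM, all under the WT median of 36.0, whereas for Hspa5 the ranges overlap almost fully.

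Bag3, an HSP70 cochaperone of selective autophagy and an HSF1 target, lay on the other side. It ran from 8.61 through 11.6 to 15.3 CPM in WT and from 10.5 through 14.6 to 19.4 CPM in KO. In KO, 9 of 11 libraries lay above the WT median and 4 above the WT maximum, and 3 WT libraries lay under the KO minimum. The log2 fold change was 0.32 ± 0.108 (unadjusted p = 0.00631, adjusted p = 0.781, edgeR), and 0.33 ± 0.112 without KO library 8. Leaving out 1 library at a time kept it between 0.27 and 0.37. Bag3 lies 14.1 Mb from Ins2 on chromosome 7, at chr7:128523616-128546981 on the plus strand, and both genes called among all 15828 are on that chromosome too. Whether its position bears on the estimate was not tested.

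The other cytosolic chaperones and their regulator had no unadjusted p under 0.05 in the fit with all libraries. Hsp90aa1, the inducible HSP90, ran from 1304 through 1387 to 1507 CPM in WT and from 1244 through 1477 to 1721 CPM in KO. The KO range was the wider at both ends, and the log2 fold change was 0.05 ± 0.0558. Without the choroid-plexus-rich libraries and KO library 8 it was 0.12 ± 0.0516 (unadjusted p = 0.0322, adjusted p = 0.614, edgeR). Hsph1 (HSP110, which recharges HSP70) ran from 329 through 376 to 436 CPM in WT and from 319 through 365 to 389 CPM in KO, with a log2 fold change of -0.09 ± 0.0516. The ranges overlapped, with 5 WT libraries above the KO maximum. Dnajb1 (HSP40) had 51.7 ± 4.34 and 53.8 ± 9.75 CPM, and 51.1 ± 4.39 CPM in KO without library 8. The Dnajb1 estimate was 0.06 ± 0.0753, and -0.01 ± 0.0503 without that library. Hsf1, the factor that controls this set, ran from 25.1 through 27.6 to 31.0 CPM in WT and from 22.8 through 27.2 to 31.9 CPM in KO, with an estimate of -0.03 ± 0.0524. Hspb1 (HSP25), a small heat-shock protein, was the most variable member. It ran from 1.76 through 2.91 to 9.88 CPM in WT and from 0.887 through 3.32 to 8.02 CPM in KO, with WT library 14 highest and KO library 22 lowest. Its estimate was -0.06 ± 0.35, and -0.38 ± 0.295 without the choroid-plexus-rich libraries and KO library 8, and 96.3% of tested genes had a smaller SD.

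Compared per kilobase of merged exon, Hspa8 and Hsp90aa1 had the highest levels of the members, 367 and 362 CPM per kb. Their order differed by genotype, with 384 and 356 CPM per kb in WT and 348 and 369 in KO. This order rests on Hspa8 counted alone. With the near-identical loci Gm15459 and Gm26825 added (described below), its mean was 2040 CPM in WT and 1973 CPM in KO. Over the exon length of Hspa8, those sums lie above Hsp90aa1 in both genotypes. Hspa8 and Hsp90aa1 were followed by Calr with 140, Hsp90b1 with 104, Canx with 90.6 and Hspa5 with 87.2. The inducible pair Hspa1b and Hspa1a had 11.6 and 7.64 CPM per kb. Among factors Atf4 had 41.6 and Xbp1 21.6 CPM per kb, while Hsf1 had 3.88 and Atf3 1.05. Trib3 was lowest with 0.149 CPM per kb.

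Hspa8, the constitutive HSP70 of neurons, fell into steps that cut across the genotypes, a grouping made after its values were seen. In 13 libraries (7 WT and 6 KO) it had 1615 to 2115 CPM, in 9 libraries (5 WT and 4 KO) 1138 to 1340 CPM, and in KO library 22 it had 627 CPM. Transcripts of Gm15459, a processed pseudogene, and Gm26825, a lincRNA that overlaps it, are 99.7% identical to Hspa8 over 1941 bases and 99.6% over 1940 bases. The pseudogene lies at chr5:5781615-5783555, and Hspa8 at chr9:40800984-40810087 on the plus strand. Counts of the pair mirrored Hspa8, with 70.8 to 317 CPM in the 13 libraries, 725 to 858 CPM in the 9 and 1322 CPM in KO library 22. The 317 CPM were in KO library 21, which stood apart by the pair. The next highest of the 13 was WT library 24 with 103 CPM. Pearson's r between Hspa8 and the pair was -0.95 over 23 libraries, and -0.95 within WT and within KO. This r describes 3 separate steps: within the 13 high libraries it was -0.37 and within the 9 middle libraries 0.89.

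The sum of the 3 loci was 1705 to 2198 CPM, with a coefficient of variation of 6.23% against 24.7% for Hspa8 alone. Hspa8 by itself had a log2 fold change of -0.14 ± 0.157, and the sum had -0.05 (unadjusted p = 0.304, adjusted p = 0.809, edgeR). The level of Hspa8 in any single library is therefore uncertain in this table. Hsp90aa1 has a like copy, Gm12346, 99.5% identical over 2255 bases, but that locus had 28.3 CPM at the median against 1244 CPM or more for Hsp90aa1, and it moved with its parent (r = 0.73). Hspb1 has copies too, Gm9817 and Hsp25-ps1, with a mean of 0.016 and 0.07 CPM.

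**Figure D3:**
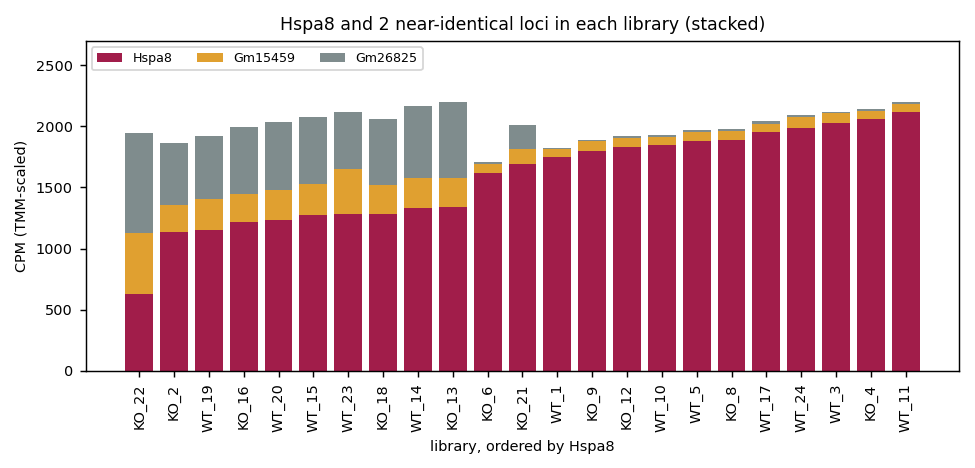
Stacked CPM of Hspa8, Gm15459 and Gm26825 in each library, ordered by Hspa8. Hspa8 steps from 627 CPM in KO library 22 through 1138 to 1340 in 9 libraries to 1615 to 2115 in 13, while the stack stays between 1705 and 2198 CPM.

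Genes of the same pathways outside the 41 were compared from lists of their own. Of 26 further ER quality-control genes 0 had an unadjusted p under 0.05, and of 24 further heat-shock genes 0, against 5.74% of all tested genes. Of 27 tested genes among 28 further ATF4-pathway genes 2 did, 1 in each direction, and 0 genes of the 3 lists passed after adjustment with edgeR or DESeq2. Aars (alanyl-tRNA synthetase) had 151 ± 9.28 CPM in WT and 166 ± 7.79 in KO, a log2 fold change of 0.13 ± 0.0373 (unadjusted p = 0.00185, adjusted p = 0.781, edgeR). Eif2ak1, the haem-sensing eIF2 kinase, had -0.07 ± 0.0323 (unadjusted p = 0.043, adjusted p = 0.781, edgeR). Without KO library 8 its estimate was -0.04 (unadjusted p = 0.114, edgeR). Gars, another tRNA synthetase, had an unadjusted p of 0.0938, and 0.035 without KO library 8 (edgeR). Without that library the count on this list was again 2, with 2 higher in KO and 0 lower. The median log2 fold change was 0.054 for the further ATF4-pathway genes, with 20 estimates above 0 and 7 below. It was 0.026 for the further ER genes, with 14 above and 12 below, and -0.011 for the further heat-shock genes, with 7 above and 17 below. Of all tested genes 8079 were above 0 and 7749 below. Without the choroid-plexus-rich libraries the further heat-shock genes had 16 above and 8 below, where all tested genes had 7720 above and 8159 below.

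Across libraries of either genotype the ER chaperones varied as a block. The genes whose log2 CPM ranked most like Hspa5 over the 22 libraries without KO library 8, among 15827 genes, were Pdia6 (Spearman's rho 0.93), Dnajb11 (0.90), Pdia4 (0.88), Manf (0.86) and Xbp1 (0.84). All 5 are members of the ER set. Of the other 21 ER genes 13 were among the 50 genes most like Hspa5, against 0 of 9 tested ATF4-set genes and 0 of 9 heat-shock genes. Without the choroid-plexus-rich libraries as well, 9 of 21 ER genes were among the top 50, with 0 of 9 ATF4-set genes and 1 of 9 heat-shock genes, Hsph1 (rho 0.85). The 14 chaperones and isomerases had a median pairwise Pearson r of 0.82, and 0.86 without KO library 8, against -0.01 over all pairs of tested genes with quartiles of -0.24 and 0.24. In the 17 libraries without both the choroid-plexus-rich libraries and KO library 8 it was 0.70. These 14 are a part of the ER set. Over all 22 ER genes the median pairwise r was 0.48, 0.56 without KO library 8 and 0.42 in those 17.

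Single pairs show the same. Hspa5 had r = 0.91 and rho = 0.78 with Hsp90b1 over 23 libraries, r = 0.90 and rho = 0.85 with Pdia4, and r = 0.86 and rho = 0.71 with Calr. The adjusted p of these 3 values of r was 5e-05 (permutation test, two-sided, Benjamini-Hochberg over 15 pairs), from a raw p of 1e-05, the smallest that 100000 resamples can give. Without KO library 8 the values of r were 0.91, 0.93 and 0.95. Without the 2 libraries farthest from the median of Hspa5 the values of r were 0.81, 0.77 and 0.70. Within WT they were 0.92, 0.96 and 0.96, and within KO 0.90, 0.80 and 0.71. Dnajb9 followed Hspa5 less closely, with r = 0.58 (adjusted permutation p = 0.013). Without the choroid-plexus-rich libraries and KO library 8 its r was 0.36 and rho 0.27. In those libraries Hsp90b1, Pdia4 and Calr had r = 0.74, 0.88 and 0.90. The median rho with Hspa5 was 0.75 (0.41 to 0.93) for 7 genes with the ER stress element in their window and 0.79 (0.07 to 0.90) for 11 without it, and no test of a difference was made.

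Members of the ER set differed in how far they followed Hspa5, as the plot of correlations shows. Over 22 libraries r with Hspa5 was 0.11 for the sensor gene Atf6, 0.17 for the mannosidase-like Edem1, 0.18 for the adaptor Sel1l and 0.39 for Eif2ak3. It was 0.46 for Syvn1 and 0.51 for Ern1. Xbp1, with 0.89, and Herpud1, with 0.82, lay within the block of chaperones.

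**Figure D4:**
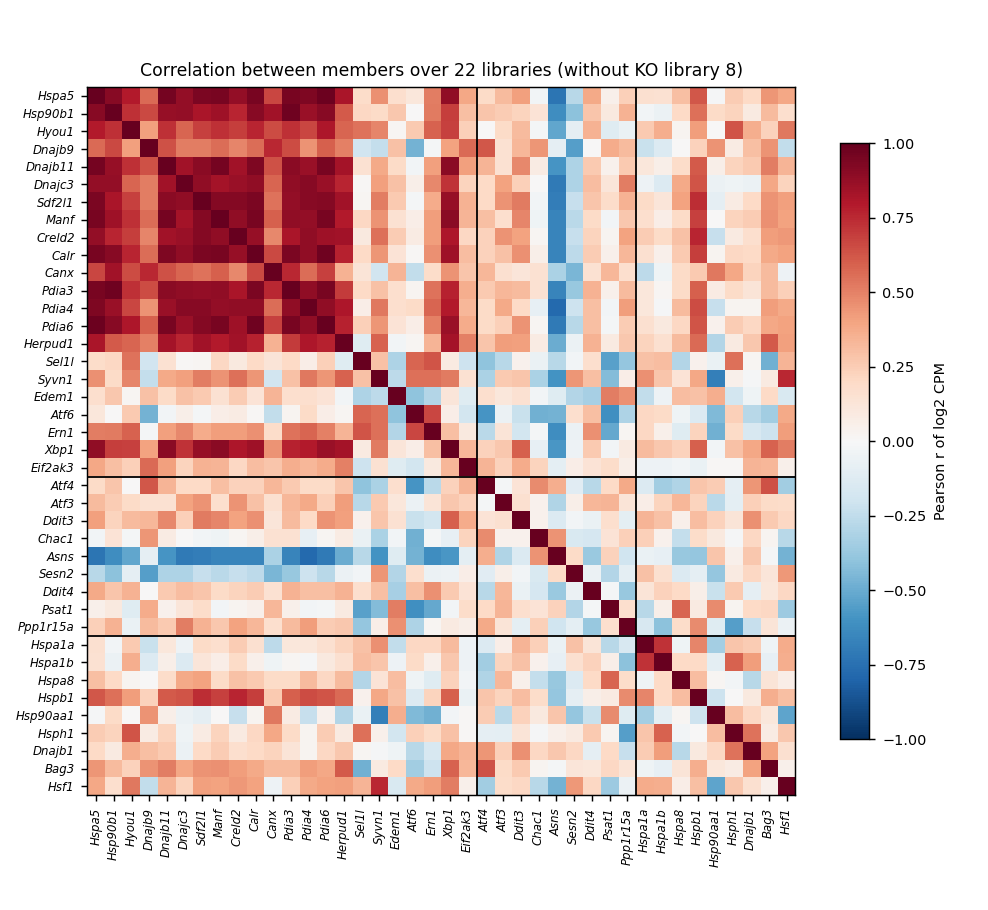
Pearson r of log2 CPM between the 40 tested members over the 22 libraries without KO library 8, with black lines between the 3 sets. The chaperones and isomerases form a block (median r 0.86), Asns runs against it, and the ATF4 and heat-shock sets show no block of their own.

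The libraries at the ends of the block were few. WT library 17 was the highest for 11 of the 22 ER genes, and KO library 9 the lowest for 11. As a mean of centred log2 CPM, the ER set stood at 0.20 ± 0.22 (SD) in the 5 choroid-plexus-rich libraries, from -0.06 to 0.47, and at -0.05 ± 0.10 in the 18 others, from -0.27 to 0.11. The choroid plexus is a secretory epithelium, and in bulk tissue fewer cells of a type and less RNA per cell cannot be told apart. The set level followed the choroid plexus marker level with r = 0.71 and rho = 0.38 over 22 libraries, and with r = -0.06 over the 17 that remain without the rich ones. Over 23 libraries r was 0.68, and 0.29 without the 2 farthest, WT library 17 and KO library 12. The block itself was present in those 17, with the median pairwise r of 0.70 given above.

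The ATF4 set did not vary as a block. Its median pairwise r was 0.00 over 23 libraries and 0.04 without KO library 8, close to the -0.01 of all gene pairs. Atf4 had r = 0.36 with Asns (adjusted permutation p = 0.18) and 0.15 with Ddit3, and Asns had 0.21 with Psat1. In the 18 libraries without the choroid-plexus-rich ones, Atf4 and Asns had r = 0.78. Asns ran against Hspa5, with r = -0.72 and rho = -0.65 (adjusted permutation p = 0.00094 and 0.0046). Without the 2 farthest libraries, WT library 17 and KO library 12, r was -0.43 and rho -0.55. Within WT r was -0.82 and within KO -0.53. The ATF4 set level had r = 0.70 with the level of the further ATF4-pathway genes over 23 libraries, 0.57 within WT and 0.90 within KO. Without the choroid-plexus-rich libraries and KO library 8 this r was 0.69. With the astrocyte marker level the ATF4 set level had r = 0.63 over 23 libraries and over 22. With the CA1 and CA3 marker level it had r = -0.22 and rho = -0.61 over 23 libraries, and r = -0.69 and rho = -0.60 without KO library 8. The part of these cell types in it was not tested.

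The heat-shock set was likewise loose, with a median pairwise r of 0.11, and 0.18 without KO library 8. Hspa1b and Hsph1 had rho = 0.60 (adjusted permutation p = 0.0094) and r = 0.36 (adjusted permutation p = 0.18). The latter was 0.59 without KO library 8, and within KO it was 0.02 with that library and 0.47 without it. Hspa1b and Dnajb1 had r = -0.39 with all libraries and 0.42 without KO library 8, which was lowest for the former and highest for the latter. Hsph1 ranked most like Prpf18, Ccdc127, Cbll1, Chordc1 and Sntg1 over 22 libraries (rho 0.84 to 0.80). Chordc1, an HSP90 cochaperone and heat-shock target, was the 1 gene of these 5 on the pathway lists, with rho = 0.83.

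Between the 3 sets, r was highest for the ER and heat-shock levels. Over 23 libraries, r was 0.64 and rho 0.86 for ER with heat shock. Both were the same without KO library 8, and r was 0.65 within WT and 0.64 within KO. Without the 2 farthest libraries r was 0.70, and without the choroid-plexus-rich libraries and KO library 8 it was 0.56. ER with ATF4 had r = 0.25, which was 0.14 within WT, 0.42 within KO, 0.05 in those 17 libraries and 0.42 when counts were scaled by library totals alone. Leaving out 1 library at a time gave 0.12 to 0.38. ATF4 with heat shock had r = 0.38, which was 0.23 within WT and 0.61 within KO, and 0.58 without WT library 15. Levels of some other lists gave values of like size. The heat-shock level had r = 0.60 with the endothelial and mural marker level and the ER level 0.42. Without the choroid-plexus-rich libraries and KO library 8 these were 0.44 and -0.01. With the level of glucocorticoid-responsive genes heat shock had r = 0.51 and ER 0.47, and without KO library 8 these were 0.63 and 0.59. With the CA1 and CA3 marker level the ER level had r = -0.21 and rho = -0.54, and -0.34 and -0.51 without KO library 8. All are descriptions, since the levels share library depth and tissue makeup, and the part of these lists in the relation was not tested.

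The relation of ER with heat shock rested on different genes in different libraries. Hspb1 had r = 0.67 with the ER level, and the value between sets was 0.44 without Hspb1 and 0.36 without Hspb1 and Hspa8. In the 17 libraries without the choroid-plexus-rich ones and KO library 8, however, it was 0.66 without those genes. There Hsph1 had r = 0.80 and Dnajb1 r = 0.63 with the ER level, against 0.21 and 0.20 over 23 libraries, while Hspb1 had 0.39. Hspa5 and Hsph1 had r = 0.76 over these 17 and 0.26 over all 23. The median pairwise r between the sets was 0.21 with all libraries and 0.29 in the 17.

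**Figure D5:**
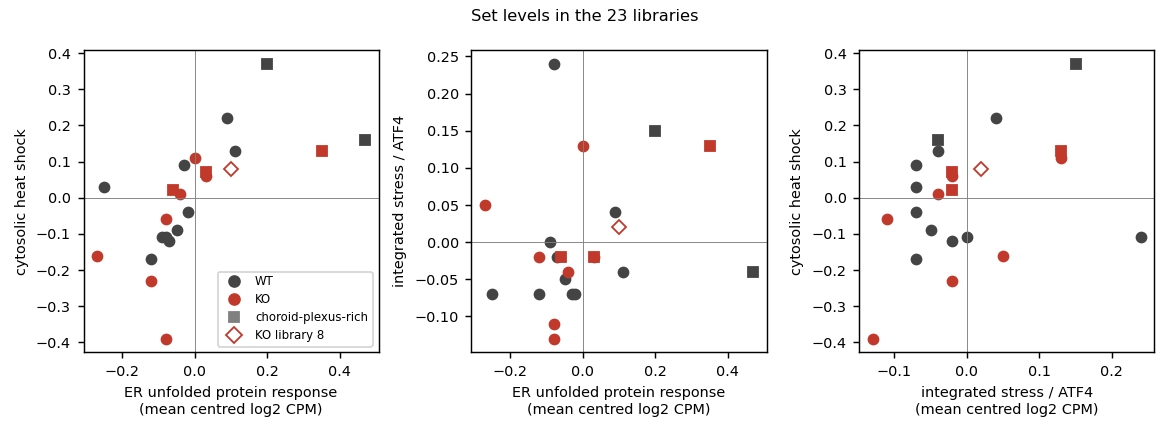
Levels of the 3 sets (mean of centred log2 CPM) against each other in 23 libraries, with choroid-plexus-rich libraries as squares and KO library 8 as an open diamond. ER and heat-shock levels are high in the same libraries (r = 0.64), the other pairs less so (r = 0.25 and 0.38), and WT and KO libraries mix along each axis.

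KO library 8 lay outside the range of the other 22 for 12 of the 40 tested members (30%), above it for 8 and below it for 4. Of all tested genes 45.8% lay outside, 22.1% above and 23.6% below, so the members' count is not read as a result about them. It was above for Hyou1 (215 CPM against 118 to 155), Canx (614 against 368 to 483) and Dnajb1 (80.4 against 45.3 to 60.7), and also for Dnajb9, Edem1, Ern1, Atf3 and Hsf1. It was below for Atf6 (37.9 against 71.5 to 109), Hspa1b (12.8 against 23.4 to 52.7) and Ddit4 (30.8 against 41.7 to 71.2), and by a small margin for Sesn2. The largest differences on the log2 scale were -1.35 for Hspa1b and -1.27 for Atf6. Hspa5, at 444 CPM, and Hsp90b1, at 513 CPM, were within the range. In the ER, ATF4 and heat-shock set levels KO library 8 stood at 0.10, 0.02 and 0.08, within the spread of the others. This library has high levels of hypothalamic genes, among them Pmch at 609 CPM and Hcrt at 106 CPM, and their part in these values was not tested.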

How the data were processed

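RNA from 23 hippocampal samples was sequenced from a stranded mRNA kit, per the labels' protocols. Estimated counts per gene were deposited as 1 table, 24.6% to 27.2% of whose non-zero values per library were fractional. The submitters' processing notes name bcl2fastq, STAR and the build mm10 without roles. The counting program, its use of strand and the annotation are not given in the sources used here. Columns were matched by library name, and 45143 of 45706 identifiers had a symbol in GENCODE M21.

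Counts were rounded, filtered with filterByExpr (15828 genes, 99.84% of counts), scaled by TMM and tested by genotype with edgeR 4.0.16 (quasi-likelihood F test, robust) in R 4.3.3, with Benjamini-Hochberg adjustment over all tested genes and a threshold of 0.05. CPM are TMM-scaled, and log2 CPM use a prior count of 2. A count of 0 allows up to 3 counts, or 0.131 to 0.218 CPM, for counting error only. In simulated data over 15828 genes for KO against WT, 66 of 100 genes changed by 0.5 on the log2 scale were recovered. Of those changed by 1, 87 of 100 were recovered, and 5.56% of all calls were false. Many more genes were changed there than were called in the real data, which eases the adjusted threshold. The simulated libraries also had no differences in tissue makeup. These rates are therefore not read as the chance of detecting a change in a member. A set level is the mean over tested members of log2 CPM centred per gene. The 15 gene pairs were tested by permutation (100000 resamples, two-sided). Libraries whose choroid plexus markers averaged over 4 log2 CPM were called rich. Similar transcripts were found with blastn 2.17.0. Members named in full were those with an unadjusted p under 0.05 with or without KO library 8, 15 genes fixed by name to stand for the roles, and the 5 most and 3 least variable. The others are given in brief. The members, lists and tests were chosen with earlier results of these data known. Alternatives were DESeq2 1.42.0, RLE size factors, no filter, a filter on a mean of 50 counts, z-scores, scaling by library totals, leaving out each library, and leaving out the choroid-plexus-rich libraries. Summing near-identical copies, leaving out those libraries together with KO library 8, and leaving Hspb1 and Hspa8 out of the set level were added after the data were seen.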

Additional observations from a re-analysis of the deposited data

How the results depend on the processing

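No member passed the adjusted threshold under RLE size factors, DESeq2, no filter, a filter on a mean of 50 counts, or in any of 23 fits without 1 library. Signs were compared for the 19 tested members named in full, with KO library 8 the only single library left out. Of these 135 alternative log2 fold changes, 130 kept their sign. The 5 others were near 0: Hspa5 at 0.028 without the choroid-plexus-rich libraries, Herpud1 at -0.021 without those and KO library 8, Xbp1 at -0.024 and Chac1 at -0.041 without KO library 8, and Chac1 at -0.051 without both. Leaving out other single libraries changed further signs. Without WT library 17 Hspa5 was at 0.05 and Pdia4 at 0.11, and without WT library 14 Hspb1 was at 0.13. Without KO library 12 Herpud1 was at -0.02 and Xbp1 at -0.04. The cause was not tested. The r of ER with heat shock was 0.44 with Hspb1 left out and 0.36 with Hspb1 and Hspa8 left out, against 0.64, and the cause was not tested. The r of ATF4 with heat shock ranged from 0.25 to 0.58 over fits that leave out 1 library. No paired analysis was possible because no replicate number occurs in both genotypes. Depth limits Trib3, with at most 15 counts in a library, and multi-copy reads limit Hspa8, Hspa1a and Hspa1b.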

Other observations

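Outside the members, several genes ran against Hspa5 and Hsph1. Eml2 had rho = -0.81 with Hspa5 over 22 libraries, and Wnt9a had rho = -0.83 with Hsph1. Cirbp, a cold-inducible RNA-binding protein, was looked at after its values were seen. It had the lowest rank correlation with Hsph1 of 15827 genes in the 17 libraries without the choroid-plexus-rich ones and KO library 8 (rho = -0.94, r = -0.93), and rho = -0.84 with Hspa5. Over 23 libraries r with Hspa5 was -0.35, with -0.72 within WT and 0.03 within KO. Leaving out KO library 8 gave -0.65, and -0.53 within KO. Over 23 libraries r with Hsph1 was -0.56, with -0.82 within WT and -0.11 within KO. It was -0.76 without KO library 8, in which Cirbp was highest at 70.2 CPM, and -0.52 within KO without that library. Rbm3, a second cold-inducible RNA-binding protein, had r = -0.60 with Hsph1 and 0.70 with Cirbp in the 17 libraries, and -0.47 with Hsph1 over 23. Over 23 libraries its r with Cirbp was 0.18, and within KO -0.32, against 0.62 over 22 libraries and 0.59 within KO without KO library 8. Cirbp had 40.2 ± 5.81 CPM in WT and 46.6 ± 8.92 in KO (log2 fold change 0.21 ± 0.0921, unadjusted p = 0.0301, adjusted p = 0.781, edgeR). Both the KO mean and this estimate include KO library 8, its highest library, and no value without it is given here.

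The gene that ranked most like Hspa8 over 22 libraries was Sc5d, a cholesterol synthesis enzyme whose gene starts 1.45 Mb from that of Hspa8 on chromosome 9 (rho = 0.85). It had 37.6 to 44.8 CPM in the 13 libraries with high Hspa8, 32.5 to 42.9 CPM in the 9 in the middle and 39.5 CPM in KO library 22, so the ranges overlapped. Slc16a13, on chromosome 11, ranked next over 22 libraries (rho = 0.80). Without the choroid-plexus-rich libraries as well it ranked first, with rho = 0.91 against 0.86 for Sc5d. It had 4.17 to 6.6 CPM in the 13 libraries, 2.9 to 4.25 CPM in the 9 and 3.48 CPM in KO library 22. Both genes were chosen after their values were seen, and whether the position of Sc5d bears on its rank was not tested.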
